A study of Mus musculus with 6 samples.

Results

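Box C/D small nucleolar RNAs (snoRNAs) leave short fragments in small RNA libraries, and these fragments are described here for 98 mouse genes whose symbol starts with Snord. The genes are all those of biotype snoRNA with such a symbol in the GENCODE annotation, of 6113 small RNA genes searched and 1507 snoRNA genes among them. A tag is a distinct sequence with its read count, and a tag of 18 to 44 bases was assigned to a Snord gene where it matched the transcript exactly on the sense strand. Each of the 98 genes had at least 1 tag, and 100053 reads (3031 distinct tags) matched in the 6 libraries together.

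The cells were J1 mouse embryonic stem cells, an established line adapted to gelatin, grown with serum replacement and kept in leukaemia inhibitory factor (LIF, 1000 U/ml) in every group. The 6 groups were cells given DMSO (1 µL, a vehicle), retinoic acid at 1 µM, BIO at 1 µM, CHIR99021 at 3 µM, ddH2O (1 µL, the water vehicle) or vitamin C at 50 µg/ml, all collected at 24 h. Retinoic acid induces differentiation, BIO and CHIR99021 inhibit the kinase GSK-3, and vitamin C helps the iron-dependent enzymes that remove methyl groups from DNA and histones to work. Each group was 1 library of this 1 line, so no comparison has a replicate check and no test across replicates was possible. In such bulk libraries, fewer cells that hold a fragment and less of it per cell cannot be told apart. The libraries held 18870345 to 23758363 reads. The miR-290 cluster, a marker of pluripotent mouse cells, made up 16.8% (retinoic acid) to 34.2% (CHIR99021) of microRNA reads, while marker microRNAs of liver, muscle, neurons and blood reached at most 0.132%, 0.631%, 0.556% and 0.0202%. The liver value was that of CHIR99021 alone, on 1893 reads, against 40 (retinoic acid) to 58 (ddH2O and vitamin C) in the other libraries. Its cause was not tested.

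Box C/D snoRNAs carry a C box near the 5′ end and a D box near the 3′ end, which lie side by side in the folded RNA and bind the proteins of the snoRNP. Most guide the methylation of ribosomal RNA by fibrillarin through a stretch of bases next to the D or D′ box, and a few act in the cleavage of the ribosomal RNA precursor. In mammals nearly all are cut out of introns of host genes, many of which encode ribosomal or nucleolar proteins.

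The transcripts that carried most of the fragments, or whose fragments differed most between libraries, are printed here 5′ to 3′ from GENCODE release 21 on the build GRCm38, with the commonest tag of the part in capitals. All lie in an intron of at least 1 transcript of a host gene except Snord118, which has no host in the annotation. Snord14c (chr9:40803583-40803668, + strand) and Snord14d (chr9:40803995-40804080, + strand) lie in Hspa8, which encodes a heat shock chaperone. Snord45c (chr3:153912125-153912204, - strand) lies in Rabggtb, Snord69 (chr14:31014287-31014366, - strand) in Gnl3 (nucleostemin), Snord2 (chr16:23108953-23109021, + strand) in Eif4a2, a translation initiation factor, and Snord22 (chr19:8725866-8725991, + strand) in the non-coding Snhg1. Snord93 (chr5:23852210-23852280, + strand) lies in 2700038G22Rik and Snord82 (chr1:86356261-86356330, - strand) in Ncl (nucleolin), while Snord118 is at chr11:69073427-69073561 on the + strand.
Snord14c: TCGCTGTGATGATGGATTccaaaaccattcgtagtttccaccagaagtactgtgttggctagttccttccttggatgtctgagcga
Snord14d: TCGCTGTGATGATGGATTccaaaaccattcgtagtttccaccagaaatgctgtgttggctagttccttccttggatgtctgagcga
Snord45c: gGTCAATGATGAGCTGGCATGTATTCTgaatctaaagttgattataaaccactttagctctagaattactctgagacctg
Snord69: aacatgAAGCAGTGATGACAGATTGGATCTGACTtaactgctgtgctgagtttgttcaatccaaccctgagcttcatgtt
Snord82: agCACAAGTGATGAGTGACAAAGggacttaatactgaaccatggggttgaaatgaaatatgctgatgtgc
Snord93: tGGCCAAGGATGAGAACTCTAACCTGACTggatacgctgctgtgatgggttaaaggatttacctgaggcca
Snord2: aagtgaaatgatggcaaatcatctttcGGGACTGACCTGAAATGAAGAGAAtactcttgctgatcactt
Snord22: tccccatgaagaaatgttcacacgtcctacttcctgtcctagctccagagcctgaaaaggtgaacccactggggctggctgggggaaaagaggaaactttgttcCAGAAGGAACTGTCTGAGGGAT
Snord118: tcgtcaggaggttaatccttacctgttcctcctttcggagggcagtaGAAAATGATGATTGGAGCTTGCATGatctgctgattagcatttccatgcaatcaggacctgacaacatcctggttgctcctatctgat

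The commonest start held 98.2% of the 5′ reads of Snord14c, 99.2% of those of Snord49a and 71.3% of those of Snord45c, and their commonest ends held 31.4%, 15.4% and 35.5%. For Snord14c and Snord49a that start is base 1 of the annotated transcript, and tags that began upstream of it could not be counted. The commonest end of Snord14c, base 18, is likewise the earliest that a tag of at least 18 bases can have. For Snord118 5′, which begins at base 48 of the transcript, the commonest start held 54.8% and the commonest end 18.3% of the reads, and for Snord21 3′ the commonest start held 29.4%. In the 6 libraries 98.8% to 99.2% of the Snord reads that held the C box began 3 to 6 bases before it, and 95.1% to 96.7% of those that held the D box ended 0 to 5 bases after it. Tags had to match within the annotated transcript, so where a box lies close to a transcript end the annotation itself limits these distances, and they are given as a description. The C box was searched as TGATGA in the first 20 bases, where 70 of 98 Snord transcripts and 0 of 42 Snora (box H/ACA) transcripts had it, and the D box as CTGA in the last 15 bases, held by 92 and 3 of them. These sites are sequence matches on the sense strand and say nothing of the proteins bound there. Reads that began in the first 8 bases of the transcript made up 68.8% (ddH2O) to 76.3% (retinoic acid) of Snord reads, and reads that ended in the last 8 bases made up 11.0% (CHIR99021) to 13.3% (ddH2O).

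Most genes gave fragments from 1 side only. Of 51 genes with 100 or more reads, 26 had at least 90% of them in the 5′ part (the middle of the tag lies in the 5′ side of the transcript), 11 had at least 90% in the 3′ part and 14 lay between. The 5′ part held 78.3% of Snord reads with DMSO (95% exact binomial interval 77.6% to 78.9%), 78.3% with BIO, 78.7% with ddH2O and 78.6% with vitamin C. It held more with retinoic acid, 85.4% (84.8% to 85.9%), and with CHIR99021, 85.1% (84.6% to 85.6%). The size of that excess depended on placing a tag by its middle. With the part set by the start of the tag, the shares of all 6 libraries lay close together, as given in the last section. Without Snord14c and Snord14d retinoic acid and CHIR99021 were at 75.7% and 76.9%, BIO and ddH2O at 73.5% and 73.7%, DMSO at 70.6% and vitamin C, the lowest, at 67.6%. All intervals given here cover counting error only, and reads amplified by PCR without molecular identifiers are not independent molecules.

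**Figure D1:**
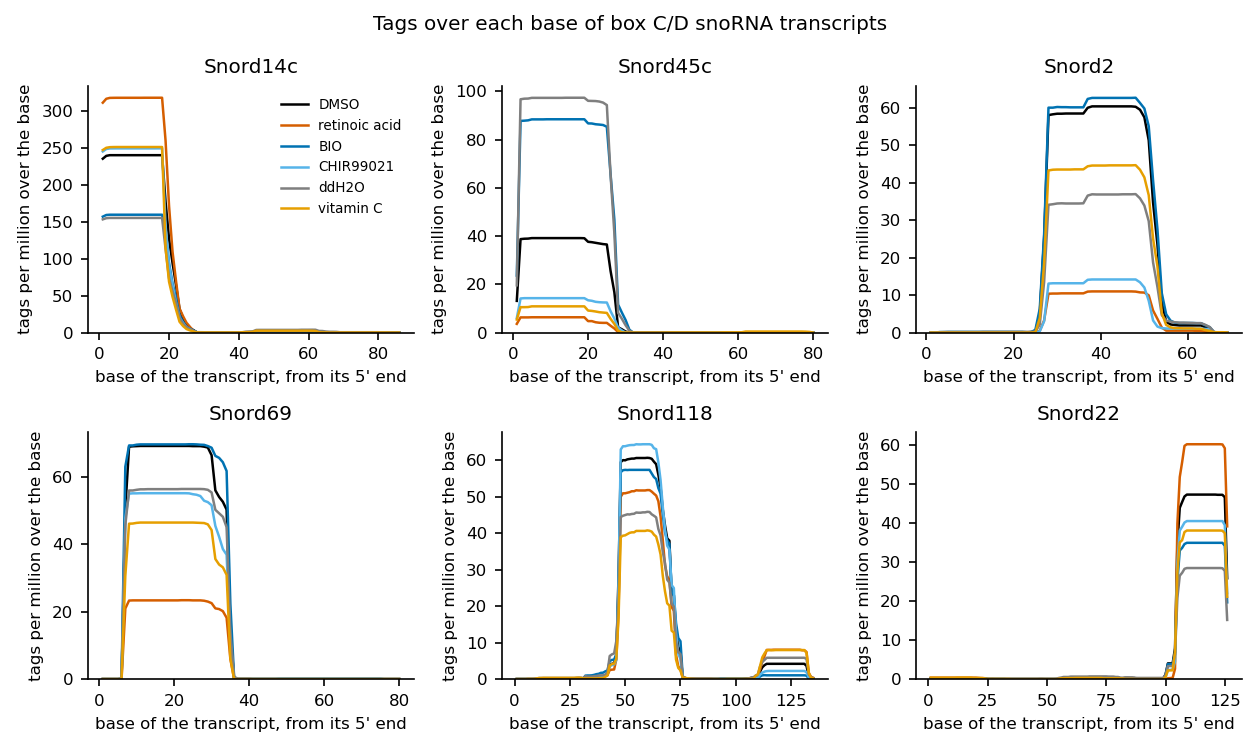
Reads over each base of 6 snoRNA transcripts, in RPM, reads scaled to 1000000 in the library (y axis) along the transcript from its 5′ end (x axis, bases), with 1 line for each library. Snord14c (drawn with the reads of Snord14d, which it shares), Snord45c and Snord69 were covered near the 5′ end, Snord22 at the 3′ end, and Snord2 and Snord118 within the transcript.

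Snord14c and Snord14d, copies of U14, gave the most abundant fragment. U14 both guides a methylation and takes part in the cleavages that release the RNA of the small ribosomal subunit. The transcripts differ at 2 positions, G47A and A49G (the base of Snord14c, the position counted from 1 at the 5′ end, the base of Snord14d), outside the fragment, so 28529 reads matched both, 91 only Snord14c and 5 only Snord14d, and the pair was treated as 1 source. Levels are given in RPM, the reads of a fragment scaled to 1000000 reads in the library. The summed level of the pair was 240.7 RPM with DMSO, 318 with retinoic acid, 160 with BIO, 249.8 with CHIR99021, 158 with ddH2O and 253 with vitamin C. Retinoic acid was the highest library and BIO and ddH2O the lowest 2. The pair supplied 39.96% of all Snord reads with retinoic acid and 18.1% with BIO.

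The length of the Snord14c and Snord14d fragment also differed between libraries. Of its 5′ reads 98.2% began at base 1, and the commonest tag covered bases 1 to 18. Tags of exactly 18 bases made up 54.8% of the 5′ reads with vitamin C and 41.9% with CHIR99021, against 26.3% with DMSO, 27.1% with ddH2O, 18.4% with retinoic acid and 14.5% with BIO. Tags shorter than 18 bases are not counted here, so the summed level leaves out any shorter end of the same fragment. Among tags of 20 to 26 bases, scaled to all tags of these lengths, the vitamin C over ddH2O ratio of Snord14c, whose reads are those of the pair, was 0.929 (0.836 to 1.03), against 1.60 (95% exact conditional interval 1.54 to 1.68) for the pair at all lengths. The CHIR99021 over BIO ratio was 0.944 in that window, against 1.56 (1.498 to 1.63).

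Other members that act in the processing of ribosomal RNA gave fragments of intermediate level. Snord118 (U8, needed for the maturation of the large subunit RNAs) is a longer RNA of 135 bases, and its 5′ fragment did not start at the end but most often at base 48, with a commonest tag at bases 48 to 72. It stood at 60.9 RPM with DMSO, 52.2 with retinoic acid, 57.5 with BIO, 64.5 with CHIR99021, 46.3 with ddH2O and 41.2 with vitamin C. These values span a narrow range, and none of the 6 comparisons below reached a 2-fold difference. Snord22 (U22, small subunit RNA processing) gave a fragment of its last bases, 105 to 126, at 47.8, 60.4, 35.1, 40.7, 29.4 and 38.4 RPM in the same order of libraries. It too kept within 2-fold in each comparison, with retinoic acid highest and ddH2O lowest. Snord14e, the third abundant U14 copy, ranged from 7.70 (CHIR99021) to 14.3 (BIO), and both parts of Snord13 (U13) stayed between 2.20 and 5.83 RPM.

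Among the guides of ribosomal RNA methylation, the 5′ or 3′ part of 7 genes reached 30 RPM in at least 1 library, and they varied to very different degrees. Snord45c had the widest range. Its 5′ fragment (commonest tag at bases 2 to 27) stood at 39.2 RPM with DMSO, 6.35 with retinoic acid, 88.4 with BIO, 14.3 with CHIR99021, 97.4 with ddH2O and 10.9 with vitamin C. The high libraries were BIO and ddH2O and the low ones retinoic acid, vitamin C and CHIR99021, with DMSO between them. The 3′ fragment of Snord2 (bases 28 to 51 of 69) was at 60.4 with DMSO, 11.0 with retinoic acid, 62.7 with BIO, 14.2 with CHIR99021, 37.1 with ddH2O and 44.7 with vitamin C. Here only retinoic acid and CHIR99021 were low.

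Snord69, Snord82, Snord49a and Snord55 were steadier. The Snord69 5′ fragment, mostly a tag of 28 bases at bases 7 to 34, was at 69.3, 23.4, 69.8, 55.2, 56.5 and 46.5 RPM with DMSO, retinoic acid, BIO, CHIR99021, ddH2O and vitamin C. Retinoic acid alone stood apart. The Snord82 5′ fragment (bases 3 to 23) was at 72.02, 65.8, 40.3, 45.4, 33.0 and 44.95 in the same order, highest in DMSO and lowest in ddH2O. The 5′ fragments of Snord49a and Snord55 ranged from 34.1 (CHIR99021) to 53.7 (retinoic acid) and from 19.4 (CHIR99021) to 41.2 (ddH2O). The less abundant 3′ fragment of Snord49a varied more, from 0.671 (retinoic acid) to 10.6 (BIO). Snord93 was near 10 RPM in most libraries, at 12.5, 8.98, 37.9, 10.3, 15.1 and 7.67, with BIO alone high.

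**Figure D2:**
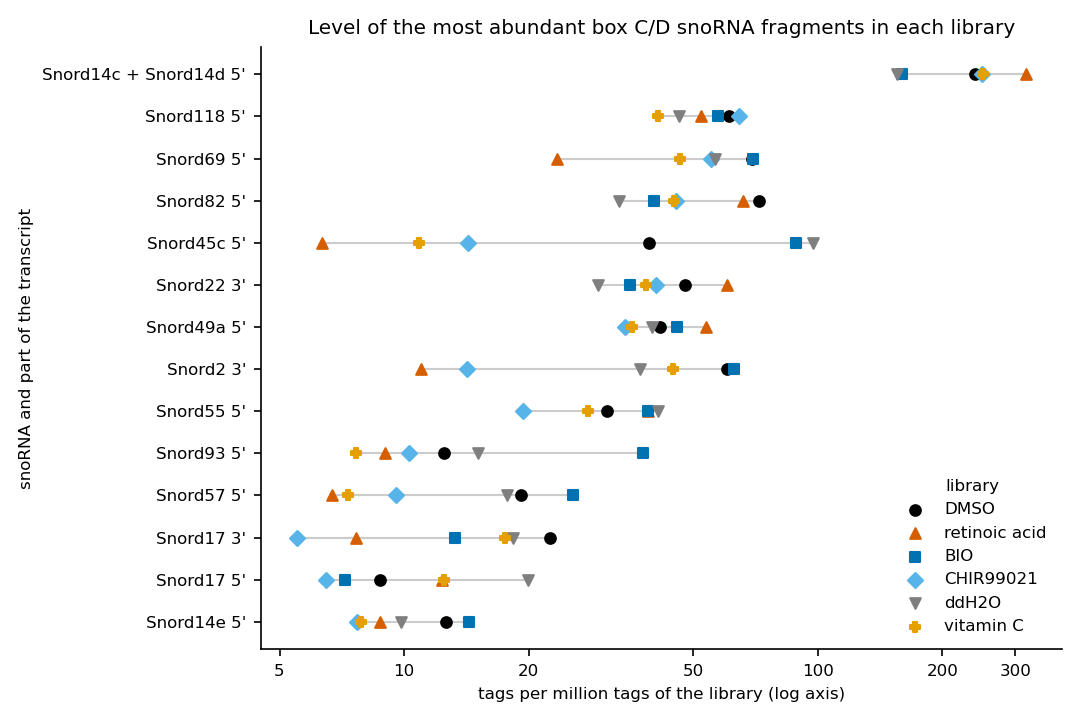
Level of the 15 most abundant Snord gene parts in each of the 6 libraries, in RPM (x axis, log scale), with Snord14c and Snord14d summed on 1 line and grey lines from the lowest to the highest library. Snord45c ranges from 6.35 to 97.4 RPM, while Snord118 stays between 41.2 and 64.5.

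The reads were concentrated in few genes. The 2 most abundant gene parts, the 5′ parts of Snord14c and Snord14d, are 1 fragment whose shared reads were split evenly. They held 28.5% of the mean Snord level over the 6 libraries, the 5 most abundant parts 48.2% and the 15 most abundant 81.0%. The pair counts as 2 parts here and as 2 of the genes counted next. Over the 6 libraries 15 genes averaged 10 RPM or more, 46 genes 1 or more, and 52 genes less than 1. The U6 guides Snord7, Snord8 and Snord67 stood at a summed 1.43 to 2.60 RPM. The imprinted orphan snoRNAs, Snord64, Snord107 and the 17 Snord116-like genes of Snhg14, which have no known ribosomal RNA target, stood at 2.15 to 4.19 together. The 17 Snord116-like genes, a family that brain tissue expresses strongly, accounted for 0.505 to 1.14 of this.

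The libraries were set against each other in 6 comparisons: retinoic acid, BIO, CHIR99021 and ddH2O each over DMSO, vitamin C over ddH2O, and CHIR99021 over BIO. The 4 comparisons over DMSO share that library, and each BIO, CHIR99021 or ddH2O library enters more than 1 comparison. A gene part was compared where the higher library had at least 2 RPM, and called higher or lower where the ratio reached 2-fold and its 95% interval left out 1. The same rule was applied to the parts of all 6113 small RNA genes as the background. Snord14c 5′ and Snord14d 5′, whose shared reads were split evenly, stand as 2 parts in each count of parts. These ratios are of shares of the whole library. MicroRNA reads made up 11.4% of the DMSO library but 3.77% with retinoic acid, 6.02% with CHIR99021 and 8.60% to 9.44% in the others, so a scale of microRNA reads shifts every log2 ratio by 1.60 for retinoic acid over DMSO, 0.93 for CHIR99021 over DMSO and 0.28 for BIO over DMSO. TMM scaling over all small RNA gene parts shifts them by 0.16, 0.60 and 0.16. Directions of the Snord total depend on this choice and are given for each comparison.

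The libraries also differed in read length. Tags of 28 bases or more made up 14.4% of all reads with BIO, 11.2% with ddH2O and 7.12% with DMSO, but 5.47% with CHIR99021, 3.79% with vitamin C and 1.94% with retinoic acid. Snord reads had the same order, from 29.4% with BIO, 20.1% with ddH2O and 15.3% with DMSO to 11.99% with CHIR99021, 9.33% with vitamin C and 5.38% with retinoic acid. Tags of 18 and 19 bases made up 33.0% of Snord reads with vitamin C and 29.8% with CHIR99021, against 10.7% with BIO. The part of read length in the ratios was not tested, and the ratio among tags of 20 to 26 bases, scaled to all tags of these lengths, is given beside the main ratio where they differ. That window was chosen after the lengths were seen.

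**Figure D3:**
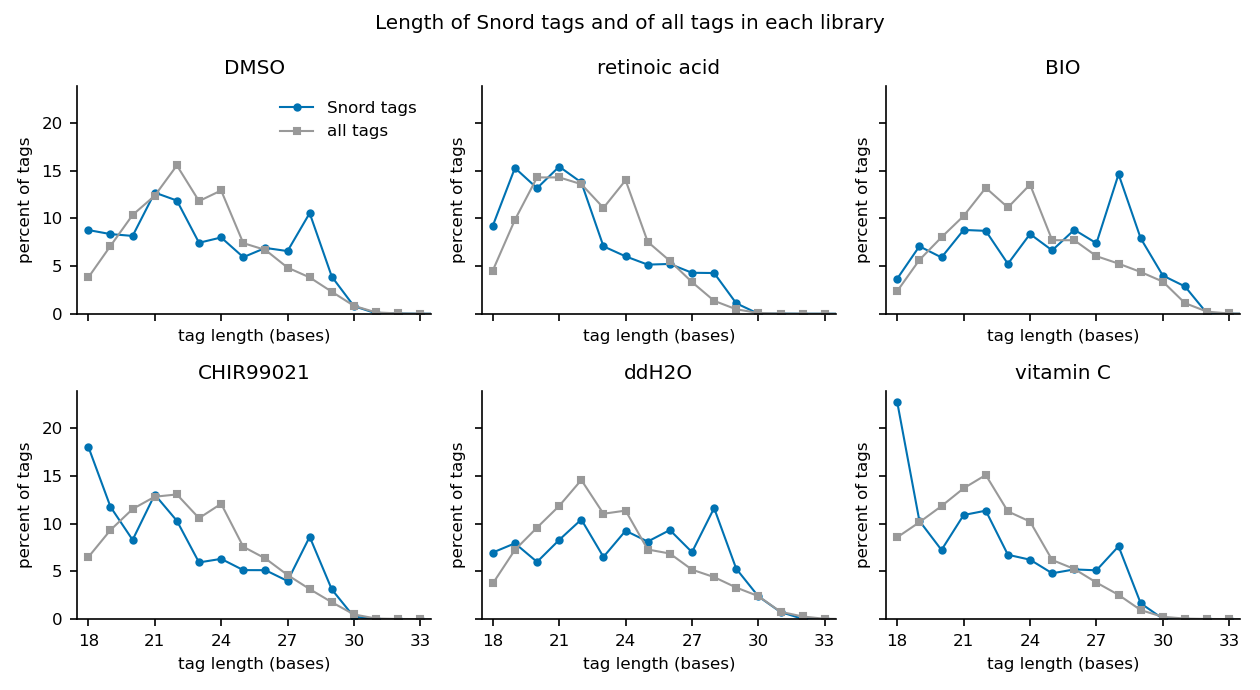
Length of Snord tags (blue circles) and of all tags (grey squares) in each library, as percent of reads (y axis) by length in bases (x axis). Snord reads have a separate peak at 28 bases in every library but that of retinoic acid, and CHIR99021 and vitamin C have their highest point at 18 bases.

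With retinoic acid over DMSO, no Snord part was called higher and fragments of several rRNA methylation guides were called lower. Snord reads stood at 797 RPM (784 to 810) against 913 (899.5 to 927), a ratio of 0.873 (0.854 to 0.892). The ratio was 0.977 with TMM scaling and 2.65 on the scale of microRNA reads, so the direction of the total turns with the scale. Of 40 Snord parts compared, 0 were called higher, against 13.0% of the 971 parts in the background, and 14 lower (35%), against 36.6%. The share of Snord parts called lower was thus near that of small RNA parts in general, and their median log2 ratio was -0.48 against -0.47 for all parts compared. On the scale of microRNA reads, which adds 1.60 to every log2 ratio, 29 of 47 Snord parts were called higher and 3 lower. The share of all small RNA parts called on that scale was not computed, so these counts show nothing particular to Snord parts. Within the set the 3′ parts were lower more often, 9 of 15 with a median log2 ratio of -1.55, than the 5′ parts, 5 of 25 with a median of -0.22. The background was not split by part, so this contrast is not shown to be particular to Snord parts. It also rests on placing a tag by its middle, since the commonest tag of Snord2 3′, at bases 28 to 51 of 69, begins in the 5′ side.

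Snord45c was 6.17-fold lower with retinoic acid (95% interval 5.09 to 7.53) on 123 against 739 reads. It was called lower under all 11 alternative settings run for it, including the scale of microRNA reads, and was 7.93-fold lower (6.25 to 10.2) among tags of 20 to 26 bases. The Snord2 3′ fragment was 5.49-fold lower (4.74 to 6.39), on 213 against 1140 reads, and 5.12-fold lower in the window. Its log2 ratio of -2.46 became -0.85 on the scale of microRNA reads, which is under 2-fold. Snord69 was 2.96-fold lower (2.65 to 3.30) and 5.52-fold lower (4.21 to 7.33) in the window, but its log2 ratio was 0.038 on the microRNA scale. Snord17, a guide of 238 bases in an intron of Snx5, was 2.94-fold lower in its 3′ fragment (2.43 to 3.57), while its 5′ fragment (bases 69 to 90) was 1.41-fold higher (1.15 to 1.73), which did not reach the call. On the microRNA scale the log2 ratio of Snord17 3′ was 0.048 and that of Snord57 0.093. Snord57 in Nop56, which encodes a core protein of these snoRNPs, was 2.85-fold lower at all lengths, yet its ratio among tags of 20 to 26 bases was 0.987 (0.668 to 1.46).

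Several abundant fragments were higher with retinoic acid, all by less than 2-fold. Snord14c and Snord14d together had a ratio of 1.32 (1.27 to 1.37), Snord49a 5′ 1.29 (1.18 to 1.42), Snord55 5′ 1.26 (1.13 to 1.40) and Snord22 3′ 1.26 (1.16 to 1.38). The 3′ fragment of Snord49a was instead called lower, 4.66-fold (2.53 to 9.26), on 13 against 59 reads. Its log2 ratio was -0.58 on the scale of microRNA reads, and it stood below 2 RPM among tags of 20 to 26 bases. The lowest ratio among the called parts was that of the Snord85 3′ fragment, named after its values were seen, at 6 against 74 reads and 12.7-fold lower (5.55 to 35.6). Its commonest tag has 28 bases, and the retinoic acid library had the smallest share of tags that long. The part of tag length in this ratio was not tested.

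With BIO over DMSO, fragments of 5 guides were called higher, and 3 of these consisted mainly of long tags. The Snord total stood at 882 RPM (870 to 894), a ratio of 0.966 (0.946 to 0.986), which was above 1 on every other scale (1.08 with TMM, 1.17 with microRNA reads) and without Snord14c and Snord14d (1.07). Of 43 parts compared, 5 were called higher (11.6%), against 1.09% of the 915 parts in the background, and 1 lower (2.33%), against 6.89%. In the window of 20 to 26 bases 1 of 36 parts was called higher and 3 lower, and with ddH2O as the control 3 were called higher and 5 lower. The share of all small RNA parts called was not computed for that window or that control. Snord45c was 2.26-fold higher (2.07 to 2.46), on 1968 against 739 reads, and 2.38-fold higher (2.16 to 2.63) in the window of 20 to 26 bases. Against the other vehicle, ddH2O, its log2 ratio was -0.14, and ddH2O was the library with the highest Snord45c level.

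With BIO, Snord93 5′, Snord49a 3′ and Snord78 3′ consisted mainly of tags longer than that window. Snord93 was 3.03-fold higher (2.62 to 3.51), and 50.7% of its 5′ reads with BIO had 30 bases or more, against 5.08% with DMSO, 26.6% with ddH2O and 0 with vitamin C. The Snord49a 3′ fragment (bases 42 to 72) was 3.41-fold higher (2.55 to 4.61), at 10.6 against 3.13 RPM, and 77.6% of its BIO reads had 30 bases or more. The 3′ fragment of Snord78, a guide in the growth-arrest host gene Gas5, was 2.96-fold higher (2.29 to 3.85), at 12.2 against 4.13 RPM, with 98.9% of its BIO reads at 28 bases or more. Snord93, Snord49a 3′ and Snord78 3′ each stood below 2 RPM in both libraries among tags of 20 to 26 bases, so the window gives no call for them. The fifth higher part, Snord1b 3′ (2.69-fold, 1.74 to 4.28), and the only lower one, Snord118 3′ (3.82-fold, 2.41 to 6.25), are named here after their values were seen, since each list of calls is short.

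Snord69 gave different readings by length, with 65.9% of its 5′ reads from DMSO and 83.3% of those from BIO at 28 bases or more. At all lengths BIO over DMSO was 1.01 (0.935 to 1.09), and among tags of 20 to 26 bases it was 0.365 (0.296 to 0.448). The Snord14c and Snord14d pair was 0.664 (0.636 to 0.694) at all lengths, and Snord82 was 0.559 (0.513 to 0.609), and neither reached the 2-fold call.

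With CHIR99021 over DMSO, no Snord part was called higher, and Snord2, Snord17 3′ and Snord45c were the lowest of the abundant ones. The Snord total was 700 RPM (689 to 711), a ratio of 0.767 (0.750 to 0.783), and 1.16 with TMM scaling or 1.46 on the scale of microRNA reads, so its direction again turned. Of 40 parts compared, 0 were called higher, against 1.53% of the 917 parts in the background, and 8 lower (20%), against 33.3%. The median log2 ratio was -0.50 for Snord parts and -0.59 for all parts compared.

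Snord2 3′ was 4.26-fold lower with CHIR99021 (3.77 to 4.82), on 337 against 1140 reads, and 3.18-fold lower (2.78 to 3.64) in the window of 20 to 26 bases. Snord17 3′ was 4.08-fold lower (3.34 to 5.00) and 4.51-fold lower in the window. Both were called lower under all 11 alternatives, the other scales and the other vehicle included. Snord45c was 2.74-fold lower (2.41 to 3.13), but its log2 ratio of -1.46 came to under 2-fold on each of the 3 other scales, and to -0.53 on that of microRNA reads. Snord83b in Rpl3 was 2.37-fold lower (1.89 to 2.99), but the call was lost on each of the 3 other scales (log2 ratio -0.32 on that of microRNA reads) and with ddH2O as the control, and Snord57 was 2.00-fold lower (1.69 to 2.37), at the edge of the call, which was lost under 6 of 11 alternatives. Snord118 5′ was nearly level, with a ratio of 1.06 (0.980 to 1.14), and so was the Snord14 pair at 1.04 (0.998 to 1.08), which was 0.748 among tags of 20 to 26 bases.

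With vitamin C over ddH2O, lower calls were made for 9 Snord parts, and Snord45c was by far the most abundant of them in ddH2O. The Snord total was 733 RPM (721 to 744) against 787 (775 to 799.5), a ratio of 0.931 (0.910 to 0.952), 1.02 with TMM scaling and 0.762 without Snord14c and Snord14d. Of 45 parts compared, 1 was called higher (2.22%), against 5.08% of the 944 parts in the background, and 9 lower (20%), against 3.92%. Lower calls were more frequent among Snord parts than in the background. They were made for 7 of 20 3′ parts and 2 of 25 5′ parts, and the background was not split by part. Among tags of 20 to 26 bases 4 Snord parts were called lower and 0 higher, and the share of all small RNA parts called in that window was not computed.

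Snord45c stood at 10.9 RPM with vitamin C and 97.4 with ddH2O, 8.96-fold lower (7.80 to 10.3) on 224 against 1983 reads. It was called lower under all 11 alternatives and was 11.5-fold lower (9.71 to 13.7) in the window of 20 to 26 bases. Against DMSO, the vehicle with the lower Snord45c level, the log2 ratio was -1.85. Snord57 was 2.42-fold lower (1.99 to 2.94), with a ratio of 0.803 (0.469 to 1.36) in the window. Snord78 3′ and Snord49a 3′, the long fragments that were high with BIO, were 5.22-fold (3.54 to 7.94) and 3.97-fold lower (2.58 to 6.31), and both were below 2 RPM in the window. Snord2 3′ had a ratio of 1.21 (1.09 to 1.33) and Snord118 5′ of 0.890 (0.810 to 0.977), neither near 2-fold. The part called higher, Snord93 3′ (5.14-fold, 2.58 to 11.3), had 52 against 10 reads and is named after its values were seen.

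The GSK-3 inhibitors were also set against each other, at doses that differ (3 µM CHIR99021, 1 µM BIO), so the ratios describe 2 libraries and not the compounds at a matched dose. The Snord total had a CHIR99021 over BIO ratio of 0.794 (0.777 to 0.810), and of 1.075 with TMM scaling. Of 42 parts compared, 1 was called higher (2.38%), against 2.13% of the 890 parts in the background, and 15 lower (35.7%), against 19.8%. The part called higher was Snord118 3′, on 55 against 25 reads, named after its values were seen. Snord45c was 6.20-fold lower with CHIR99021 (5.52 to 6.97) and Snord2 3′ 4.42-fold lower (3.92 to 4.99), and both were called lower under all 10 alternatives run. Snord93, Snord78 3′ and Snord49a 3′ were 3.69-fold, 4.68-fold and 5.06-fold lower at all lengths, and each was below 2 RPM in both libraries among tags of 20 to 26 bases. Snord69 had a ratio of 0.791 (0.735 to 0.852) at all lengths and was 2.68-fold higher (2.19 to 3.28) among tags of 20 to 26 bases. Snord49a 5′ had a ratio of 0.748 (0.681 to 0.821), and the Snord14 pair was higher by 1.56-fold.

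The vehicle libraries also differed from each other, with 8 Snord parts called, against 6 for BIO over DMSO. For ddH2O over DMSO the Snord total had a ratio of 0.862 (0.844 to 0.881), 0.766 with TMM scaling and 1.15 on the scale of microRNA reads, so its direction turned there. Of 45 parts compared, 5 were called higher (11.1%), against 3.49% of the 945 parts in the background, and 3 lower (6.67%), against 6.77%. Snord45c was 2.49-fold higher with ddH2O (2.28 to 2.71), which is more than BIO over DMSO, and 2.82-fold higher in the window of 20 to 26 bases. Snord17 5′ was 2.29-fold higher (1.90 to 2.76) and Snord104 3′ 3.52-fold higher (1.97 to 6.70) on 57 against 15 reads. Snord82 was 2.18-fold lower (1.99 to 2.40), but on the scale of microRNA reads its log2 ratio was -0.71 and 0 parts were called lower. How far cultures given the same agent differ cannot be told from 1 library per group.

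**Figure D4:**
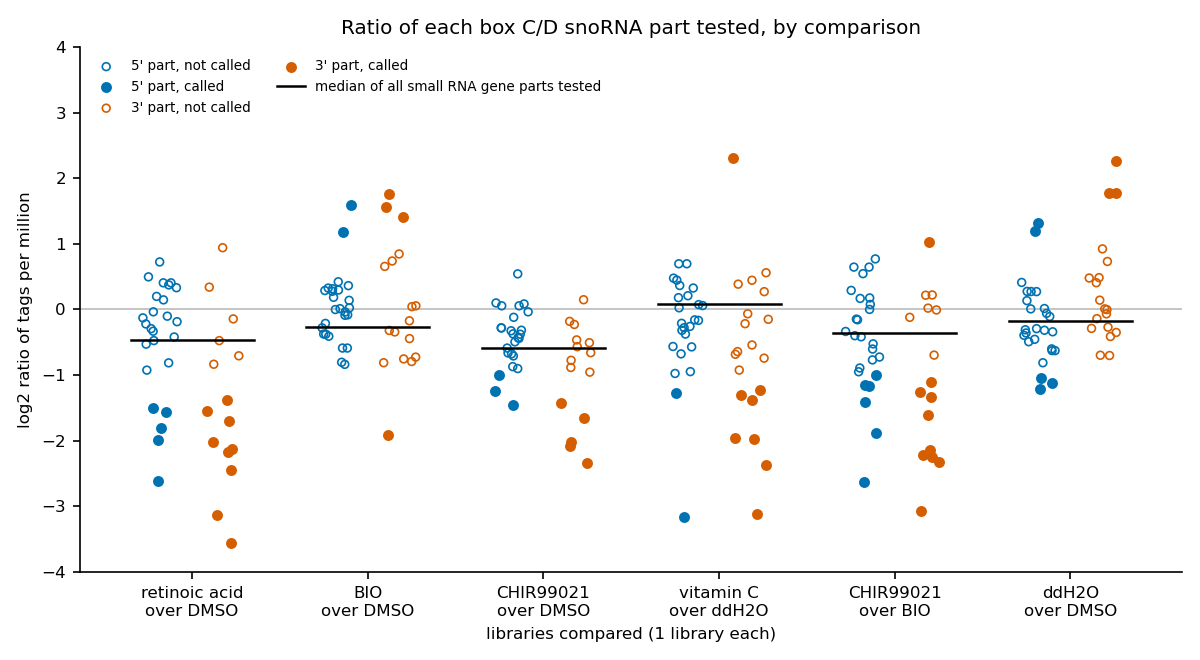
Log2 ratio of RPM (y axis) for each Snord part compared, by comparison (x axis), with 5′ parts in blue, 3′ parts in orange and filled points for called parts. Black bars give the median of all small RNA gene parts compared, and the lowest 3′ part lies below the lowest 5′ part in the 3 treatment comparisons over DMSO and in CHIR99021 over BIO.

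**Figure D5:**
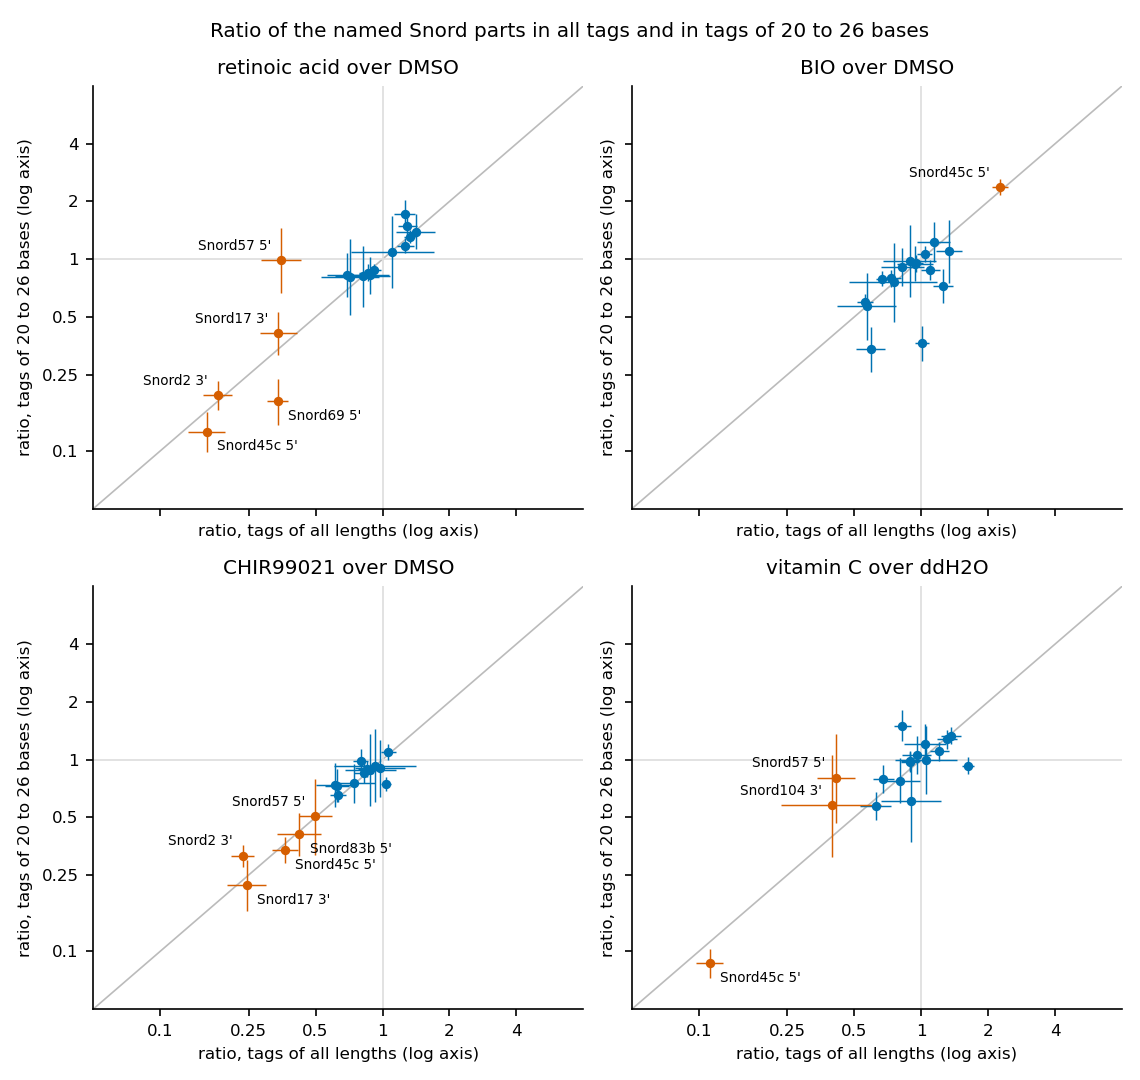
Ratio of the named Snord parts at all lengths (x axis, log scale) and among tags of 20 to 26 bases (y axis, log scale), with 95% intervals of counting error, orange for parts called at all lengths and blue for the others. Parts below 2 RPM in both libraries of the window are not drawn, and Snord45c lies near the diagonal in all 4 comparisons, and Snord57 moves from 0.351 to 0.987 with retinoic acid.

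Grouped by what the members do, the summed reads of the processing snoRNAs and of the other members had ratios on opposite sides of 1 with retinoic acid, BIO and vitamin C, which for retinoic acid and vitamin C rested on Snord14c and Snord14d and for BIO did not hold among tags of 20 to 26 bases. The 7 genes of the processing list (Snord13, Snord14a, Snord14c, Snord14d, Snord14e, Snord22 and Snord118) had a summed level of 378 RPM with DMSO, 459 with retinoic acid, 275 with BIO, 375 with CHIR99021, 258 with ddH2O and 360 with vitamin C. The 69 other genes, most of them known or predicted methylation guides, had 529.5, 334, 602, 322, 523 and 368. The other genes were highest in BIO, DMSO and ddH2O and lowest in CHIR99021, retinoic acid and vitamin C, and the processing list had retinoic acid highest and ddH2O and BIO lowest. The retinoic acid over DMSO ratio was 1.21 (1.18 to 1.25) for the processing list and 0.631 (0.611 to 0.651) for the other genes, and vitamin C over ddH2O was 1.39 (1.34 to 1.44) and 0.704 (0.684 to 0.725). For BIO over DMSO they were 0.729 (0.705 to 0.755) and 1.14 (1.11 to 1.17). For CHIR99021 over BIO they were 1.36 (1.32 to 1.41) and 0.535 (0.520 to 0.550), and the Snord14c and Snord14d pair alone had 1.56 there. On the scale of microRNA reads both lists were above 1 with retinoic acid, at 3.68 and 1.91, with the processing list again the higher. The Snord14c and Snord14d pair supplied 240.7 of the 378 RPM of the processing list with DMSO. Without it the ratio of the list was 1.02 (0.969 to 1.08) with retinoic acid, 1.06 (0.9997 to 1.13) with vitamin C and 0.843 (0.798 to 0.891) with BIO. With retinoic acid Snord118 5′ (0.857), Snord14e 5′ (0.692), Snord13 5′ (0.815) and Snord13 3′ (0.903) were below 1. Snord118 3′ (1.92) and Snord22 3′ (1.26) were above 1. For tags of 20 to 26 bases the processing list and the other genes had ratios of 1.18 and 0.7125 with retinoic acid, 1.01 (0.958 to 1.06) and 0.7485 with vitamin C, and 0.822 and 0.944 with BIO.

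By count, 0 of 8 processing parts compared were called in either direction with retinoic acid, and 14 of 32 other parts were called lower, with medians of 0.10 and -0.83 in log2 ratio against -0.47 for all parts compared, of which 36.6% were called lower. The processing parts include Snord14c 5′ and Snord14d 5′, 1 fragment that enters each count as 2 parts. With BIO, 1 of 8 processing parts was called lower and 5 of 35 other parts higher, against 6.89% and 1.09% of all parts compared. With vitamin C, 0 of 9 processing parts were called, and of 36 other parts 1 was called higher and 9 lower, against 5.08% and 3.92% of all parts compared. No part of a U6 guide or of an imprinted orphan snoRNA reached 2 RPM at all lengths. In the window of 20 to 26 bases Snord107 5′ stood at 2.27 with DMSO and 2.38 with BIO, per 1000000 tags of these lengths, and was called lower with CHIR99021 over DMSO (2.35-fold) and over BIO (2.47-fold), on 17 against 33 and 38 reads. The summed level of the imprinted orphan list was lower with retinoic acid over DMSO, at a ratio of 0.690 (0.481 to 0.985), and with CHIR99021 over DMSO, at 0.513 (0.353 to 0.738), and on the scale of microRNA reads these ratios were 2.09 and 0.974. The Snord116-like genes had 1.14 RPM with retinoic acid and 0.530 with DMSO, a ratio of 2.14 whose interval (0.974 to 5.07) includes 1.

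Grouped by host, members of ribosomal protein genes (21 genes) had ratios of 0.884 (0.827 to 0.946) with retinoic acid, 1.07 (1.00 to 1.14) with BIO and 0.705 (0.659 to 0.754) with CHIR99021 over DMSO, and 0.782 (0.732 to 0.836) with vitamin C over ddH2O. The Gas5 members, Snord47, Snord78 and 2 annotations of Snord80, summed to 7.10 RPM with DMSO, 3.82 with retinoic acid, 14.7 with BIO, 5.05 with CHIR99021, 10.4 with ddH2O and 3.35 with vitamin C. Most of this sum was Snord78 3′ in BIO, ddH2O, DMSO and, narrowly, at 2.61 RPM, CHIR99021. Snord47, of the same host, had a 5′ level of 1.55 to 2.58 RPM in all 6 libraries. Likewise Snord14c, Snord14d and Snord14e share the host Hspa8, and with retinoic acid the pair had a ratio of 1.32 while Snord14e had 0.692 (0.564 to 0.846).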

How the data were processed

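Small RNA reads of 6 libraries, 1 for each group, were deposited by the authors as raw counts of each distinct sequence with its length in bases, and no normalized values were used. Total RNA was isolated with TRIzol, per the labels' protocols, which name an Illumina TruSeq RNA kit for the libraries. The build mm9 is named in the submitters' processing notes, while trimming, aligner and filters are not given in the sources used here. Tags of 18 to 44 bases were matched exactly, sense strand, to small RNA transcripts of GENCODE release 21 (GRCm38), and no coordinates were moved between builds. A tag of several Snord genes was split evenly, and its middle set the 5′ or 3′ part. Values are RPM, reads scaled to 1000000 in the library (18870345 to 23758363 reads). Ratios carry 95% exact conditional binomial intervals and shares exact (Clopper-Pearson) ones, both for counting error only. A part was compared at 2 RPM or more in the higher library. The named parts were the 15 with the highest mean, up to 8 called in each direction of a comparison at 10 RPM or more in the higher library, and the 3 highest of each list. The members and lists were chosen with earlier results of these data known. Alternatives were other scalings (edgeR 4.0.16 for TMM, DESeq2 1.42.0 for median of ratios, R 4.3.3), length limits, tag assignment, minimum level and the other vehicle, with no count test by either package. Scripts ran in Python 3.11.15 with numpy 2.4.6, scipy 1.17.1, pandas 2.3.3 and matplotlib 3.10.9 and were tested on simulated data.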

Additional observations from a re-analysis of the deposited data

How the results depend on the processing

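Each group was 1 library, so no replicate could be left out. No paired analysis was possible because each group held 1 library. Tags that match the genome outside Snord genes were not removed, since no genome sequence was used here, and tags also found in a transcript of an unrelated gene were removed in its place, an alternative chosen after seeing the data, as were the window of 20 to 26 bases and the set without Snord14c and Snord14d. The cause of the differences below was not tested. The share of all small RNA parts called was computed for the main setting only, so the counts of calls below have no background beside them. Ratios are over DMSO for retinoic acid, BIO, CHIR99021 and ddH2O and over ddH2O for vitamin C unless another library is named, and with the other vehicle as control these 2 vehicles change places. On the scale of microRNA reads the ratio of the Snord total was 1.15 for ddH2O, 1.245 for CHIR99021 over BIO, 0.870 for vitamin C, 1.46 for CHIR99021, 1.17 for BIO and 2.65 for retinoic acid. On the scale of microRNA reads the higher calls numbered 5 for CHIR99021 over BIO, 4 for CHIR99021 and 29 for retinoic acid and the lower calls numbered 0 for ddH2O, 7 for CHIR99021 over BIO, 3 for CHIR99021 and 3 for retinoic acid. For retinoic acid over DMSO, the log2 ratio on the scale of microRNA reads had the opposite sign, at 1.38 for Snord118 5′, 1.31 for Snord13 5′, 1.07 for Snord14e 5′, 0.0475 for Snord17 3′, 1.12 for Snord21 3′, 0.0929 for Snord57 5′, 0.0384 for Snord69 5′, 1.47 for Snord82 5′, 1.41 for Snord83b 5′ and 1.12 for Snord93 5′. For the U6 guides on the scale of microRNA reads the summed ratio was 1.51 for CHIR99021 and 2.43 for retinoic acid. For the imprinted and orphan list on the scale of microRNA reads the summed ratio was 1.03 for CHIR99021 over BIO, 0.974 for CHIR99021 and 2.09 for retinoic acid. For the other genes on the scale of microRNA reads the summed ratio was 1.31 for ddH2O, 0.839 for CHIR99021 over BIO, 0.658 for vitamin C, 1.155 for CHIR99021, 1.38 for BIO and 1.91 for retinoic acid. For the processing list on the scale of microRNA reads the summed ratio was 0.9105 for ddH2O, 2.13 for CHIR99021 over BIO, 1.30 for vitamin C, 1.885 for CHIR99021, 0.883 for BIO and 3.68 for retinoic acid. With TMM scaling the ratio of the Snord total was 0.766 for ddH2O, 1.075 for CHIR99021 over BIO, 1.02 for vitamin C, 1.16 for CHIR99021, 1.08 for BIO and 0.977 for retinoic acid. With TMM scaling the higher calls numbered 4 for CHIR99021 over BIO, 1 for CHIR99021 and 1 for retinoic acid and the lower calls numbered 8 for CHIR99021 over BIO and 4 for CHIR99021. For the other genes with TMM scaling the summed ratio was 0.8775 for ddH2O, 0.725 for CHIR99021 over BIO, 0.769 for vitamin C, 0.919 for CHIR99021, 1.27 for BIO and 0.706 for retinoic acid. For the processing list with TMM scaling the summed ratio was 0.608 for ddH2O, 1.84 for CHIR99021 over BIO, 1.52 for vitamin C, 1.5 for CHIR99021, 0.814 for BIO and 1.36 for retinoic acid. For the imprinted and orphan list with TMM scaling the summed ratio was 0.775 for CHIR99021. With median-of-ratios scaling the ratio of the Snord total was 0.772 for ddH2O, 1.015 for CHIR99021 over BIO, 0.976 for vitamin C, 1.09 for CHIR99021, 1.08 for BIO and 0.971 for retinoic acid. With median-of-ratios scaling the higher calls numbered 2 for CHIR99021 over BIO, 1 for CHIR99021 and 1 for retinoic acid and the lower calls numbered 9 for CHIR99021 over BIO and 4 for CHIR99021. Without tags of 18 and 19 bases the ratio of the Snord total was 0.885 for ddH2O, 0.624 for CHIR99021 over BIO, 0.7325 for vitamin C, 0.649 for CHIR99021, 1.04 for BIO and 0.795 for retinoic acid. Without tags of 18 and 19 bases the higher calls numbered 0 for CHIR99021 over BIO and 0 for vitamin C. Without tags of 18 and 19 bases the 5′ share was 71.8% for vitamin C, 76.5% for ddH2O, 81.2% for CHIR99021, 76.6% for BIO, 83.0% for retinoic acid and 75.2% for DMSO. With tags of 1 Snord gene only the ratio of the Snord total was 0.938 for ddH2O, 0.623 for CHIR99021 over BIO, 0.761 for vitamin C, 0.669 for CHIR99021, 1.07 for BIO and 0.710 for retinoic acid. With tags of 1 Snord gene only the 5′ share was 67.4% for vitamin C, 73.45% for ddH2O, 77.0% for CHIR99021, 73.5% for BIO, 75.65% for retinoic acid and 70.5% for DMSO. With the other vehicle as control the ratio of the Snord total was 0.802 for vitamin C, 0.889 for CHIR99021, 1.12 for BIO and 1.01 for retinoic acid. With the other vehicle as control the higher calls numbered 3 for BIO and 5 for retinoic acid and the lower calls numbered 16 for CHIR99021 and 5 for BIO. For BIO over DMSO, the log2 ratio with the other vehicle as control had the opposite sign, at -1.36 for Snord104 3′ and -0.14 for Snord45c 5′. For vitamin C over ddH2O, the log2 ratio with the other vehicle as control had the opposite sign, at 0.47 for Snord104 3′. That rested on 23 reads with vitamin C against 15 with DMSO, both below 2 RPM. Among tags of 20 to 26 bases the ratio of the Snord total was 0.831 for vitamin C, 0.709 for CHIR99021, 0.894 for BIO and 0.904 for retinoic acid. Among tags of 20 to 26 bases the lower calls numbered 7 for CHIR99021 over BIO, 4 for vitamin C, 3 for BIO and 9 for retinoic acid and the higher calls numbered 0 for vitamin C and 1 for BIO. For BIO over DMSO, the log2 ratio among tags of 20 to 26 bases had the opposite sign at -1.45 for Snord69 5′. That rested on 132 against 330 reads. The sign also differed at -0.28 for Snord49a 3′ (9 against 10 reads) and -1.72 for Snord78 3′ (3 against 10). Both were below 2 RPM in that window, too few reads to give a direction. For vitamin C over ddH2O, the log2 ratio among tags of 20 to 26 bases had the opposite sign, at 0.79 for Snord49a 3′ and 0.14 for Snord78 3′. These rested on 11 against 6 and 8 against 7 reads, below 2 RPM and too few to give a direction. For CHIR99021 over BIO, the log2 ratio among tags of 20 to 26 bases had the opposite sign, at 0.0165 for Snord55 5′, 1.42 for Snord69 5′, 1.14 for Snord78 3′ and 0.0374 for Snord93 5′. Snord78 3′ (8 against 3 reads) and Snord93 5′ (25 against 22) were below 2 RPM in that window. The Snord55 5′ ratio was nearly level, at 1.01 (0.823 to 1.24). For the other genes among tags of 20 to 26 bases the summed ratio was 0.6615 for CHIR99021 over BIO, 0.7485 for vitamin C, 0.944 for BIO and 0.7125 for retinoic acid. For the processing list among tags of 20 to 26 bases the summed ratio was 1.01 for CHIR99021 over BIO, 1.01 for vitamin C, 0.833 for CHIR99021 and 0.822 for BIO. Among tags of 20 to 26 bases the 5′ share was 72.1% for vitamin C, 77.3% for ddH2O, 79.8% for CHIR99021, 82.2% for retinoic acid and 76.05% for DMSO. Without Snord14c and Snord14d the ratio of the Snord total was 0.936 for ddH2O, 0.624 for CHIR99021 over BIO, 0.762 for vitamin C, 0.6695 for CHIR99021, 1.07 for BIO and 0.712 for retinoic acid. For the processing list without Snord14c and Snord14d the summed ratio was 0.737 for ddH2O, 1.08 for CHIR99021 over BIO, 1.06 for vitamin C, 0.912 for CHIR99021, 0.843 for BIO and 1.02 for retinoic acid. Without Snord14c and Snord14d the 5′ share was 67.6% for vitamin C, 73.7% for ddH2O, 76.9% for CHIR99021, 73.5% for BIO, 75.7% for retinoic acid and 70.6% for DMSO. Without tags counted once the higher calls numbered 0 for CHIR99021 over BIO and 1 for retinoic acid. Without tags counted once the 5′ share was 79.7% for vitamin C, 79.9% for ddH2O, 86.2% for CHIR99021, 79.0% for BIO, 86.4% for retinoic acid and 79.3% for DMSO. At a minimum of 0.5 RPM the higher calls numbered 2 for CHIR99021 over BIO, 3 for vitamin C, 2 for CHIR99021 and 1 for retinoic acid and the lower calls numbered 5 for ddH2O, 13 for CHIR99021, 3 for BIO and 27 for retinoic acid. At a minimum of 10 RPM the lower calls numbered 1 for ddH2O, 9 for CHIR99021 over BIO, 2 for vitamin C, 5 for CHIR99021, 0 for BIO and 5 for retinoic acid and the higher calls numbered 2 for ddH2O, 0 for CHIR99021 over BIO and 0 for vitamin C. Over whole genes the higher calls numbered 3 for ddH2O, 0 for CHIR99021 over BIO, 0 for vitamin C and 3 for BIO and the lower calls numbered 0 for BIO. Without tags of other small RNA genes the higher calls numbered 0 for vitamin C. Allowing 3 untemplated bases the higher calls numbered 0 for CHIR99021 over BIO. With the part set by the start of the tag the higher calls numbered 0 for CHIR99021 over BIO. With the part set by the start of the tag the 5′ share was 86.1% for vitamin C, 85.3% for ddH2O, 88.2% for CHIR99021, 86.5% for BIO, 87.4% for retinoic acid and 86.4% for DMSO. Counting each distinct tag as 1 the reads starting in the first 8 bases were 42.95% for vitamin C, 40.1% for ddH2O, 45.85% for CHIR99021, 45.6% for BIO, 48.2% for retinoic acid and 43.7% for DMSO. Snord45c was called lower for retinoic acid (log2 ratio -3.93 to -1.02), vitamin C (-3.52 to -1.85) and CHIR99021 over BIO (-2.82 to -1.98) in every alternative run for it, as were Snord2 3′ for CHIR99021 over DMSO (-2.11 to -1.16) and Snord17 3′ for CHIR99021 over DMSO (-2.53 to -1.10). Depth limits the lower members, since 52 of 98 genes averaged less than 1 RPM.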
